A study of Mus musculus with 29 samples.

Results

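The nuclear-encoded genes of oxidative phosphorylation were described in RNA-seq counts from a mouse model of gastric cancer peritoneal dissemination. A gene was taken when its symbol matched the pattern for the Nduf, Sdh, Uqcr, Cox4 to Cox8 or Atp5 families, which gave 82 of the 24421 genes in the count table. Of these, 35 belonged to complex I, 4 to complex II, 8 to complex III, 16 to complex IV and 15 to complex V, and 4 were related proteins that are not counted as subunits of a complex here (Ndufa4l2, Cox7a2l, Atp5s and Atp5sl). The pattern left out the subunit genes Cox4i1, Cox4i2, Ndufab1 and Cyc1. Genes for the subunits that mitochondrial DNA encodes were not analyzed here.

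Female C57BL/6J mice, 5 to 6 weeks old at the start, received YTN16 mouse gastric cancer cells intraperitoneally on day 0. Every mouse of all 7 groups carried these cells at the start, and RNA was taken from stripped peritoneum, labeled as tumor tissue. At day 21 (3wk) the groups were untreated (n = 5) and dual ICI (n = 5), and at day 35 (5wk) they were untreated (n = 5), anti-PD1 (n = 5), anti-CTLA4 (n = 4), dual ICI-uncured (n = 2) and dual ICI-cured (n = 3). Antibodies were given intraperitoneally on days 5, 8 and 12, with further injections on days 21 and 28 in the 5wk groups, the anti-PD1 dose being 10 mg/kg and that of anti-CTLA4 5 mg/kg. Dual ICI means both antibodies. Untreated mice received PBS. The labels give all 5 dual ICI mice at 5wk one treatment, so the split into cured (mice 2, 3 and 4) and uncured (mice 1 and 5) rests on reading the number in each label as the mouse number of the study, and all 5 were also compared as 1 group. The study also describes a cure under anti-PD1 alone, and the labels do not say which anti-PD1 mouse this was. The library names of the 3wk and 5wk groups carry separate runs of numbers, whose meaning is not stated, so time and whatever these numbers mark cannot be told apart.

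Oxidative phosphorylation is the set of reactions by which mitochondria make ATP. Complexes I and II take electrons from NADH and succinate, complex III passes them to cytochrome c, complex IV hands them to oxygen, and complex V, the ATP synthase, uses the proton gradient built by complexes I, III and IV. Skeletal muscle is rich in these complexes, above all its slow and oxidative fibers, and complex IV carries muscle isoforms of 3 small subunits (Cox6a2, Cox7a1 and Cox8b) in place of forms that most tissues use (Cox6a1, Cox7a2 and Cox8a). Ckm, the creatine kinase of muscle, was used as the measure of muscle content in each library.

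Library totals ran from 25989217 to 31219650 counts. Levels are CPM, the counts of a gene relative to the size of its library, scaled with TMM factors over all 29 libraries. The 11 markers of gastric epithelium, the tissue of origin of the tumor cells, summed to 16.1 to 89.6 CPM in the 3 dual ICI-cured libraries and to 55.7 CPM in anti-PD1 mouse 5, and to between 710 and 3670 CPM in every other library. In the first 4 libraries the labeled tumor tissue had its defining markers low. Mesothelial markers summed to 37.5 to 151 CPM in the cured libraries and to 155 to 500 CPM in untreated mice at 5wk. In bulk tissue, fewer cells of a type and less RNA per cell cannot be told apart.

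Of the 82 genes, 79 had a count in every library, and the same number passed the filter on low counts over all 29 libraries. The other 3 were Cox8c, at 0 in all libraries, Cox7b2, with 10 counts in all, and Ndufs5, a small complex I subunit, with 4 counts in all. The other 34 complex I genes had mean levels of 46.1 CPM or more. How reads of Ndufs5 were assigned was not tested, so its 4 counts are not read as its expression. Per kilobase of exon, over all annotated transcripts, the highest mean levels were those of Cox6a2 at 628 CPM per kilobase, Atp5a1 at 427, Cox8b at 373 and Atp5b at 373. Ckm stood at 2474 CPM per kilobase. Atp5a1 and Atp5b encode the alpha and beta subunits of the catalytic head of ATP synthase. The exons of 5 members overlapped another gene on the same strand and those of 25 overlapped one on the other strand. Whether counting used the strand was not given in the sources used here, so reads of such pairs could be shared.

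Levels of different genes were compared per kilobase of exon, for members with high and low mean CPM in each complex. Exon length was taken over all annotated transcripts of a gene and can exceed that of its mRNA. The order of genes therefore depends on the annotation as well as on the reads. In complex I, Ndufb3, an accessory subunit of the membrane arm, stood at 60.4 CPM per kilobase. In complex II, Sdhd, a membrane anchor, stood at 118 CPM per kilobase and Sdha, the flavoprotein that oxidizes succinate, at 124. In complex III, Uqcr11, a small accessory subunit, had 179 CPM per kilobase and Uqcrc1, a core protein, 108. Before division by length Uqcrc1 had the higher mean, at 446 CPM against 115 CPM. In complex IV, Cox6b2, a testis form, had 1.01 CPM per kilobase, far under Cox6a2. In complex V, Atp5k, a small subunit of the membrane part, had 99.7 CPM per kilobase, also under Atp5b. Of the related proteins, Ndufa4l2 had 8.87 CPM per kilobase and Cox7a2l, which takes part in joining complexes III and IV, 94.6.

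The summed level of the 82 genes varied 4.03-fold between the lowest and the highest library, and Ckm varied 14.1-fold. In untreated mice at 5wk the sums were 8678, 18730, 8423, 17300 and 8902 CPM for mice 1 to 5. In the 3 dual ICI-cured mice they were 32080, 27490 and 29660 CPM, and in the uncured mice 8726 and 8209 CPM. All cured mice lay above all untreated mice. Uncured mouse 1 lay within the untreated range and uncured mouse 5 below the lowest untreated mouse. The anti-PD1 mice had 12930, 7954, 8938, 12060 and 30940 CPM, so that mouse 5 stood with the cured mice and the other 4 with the untreated. The anti-CTLA4 mice had 8033, 16100, 9661 and 11110 CPM. At 3wk the untreated mice had 14420, 13890, 14550, 9292 and 15500 CPM, and the dual ICI mice 22660, 20730, 13220, 8282 and 11070 CPM. The 3wk groups overlapped. As a share of all counts, the 82 genes took between 0.948% and 2.24% of a library.

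Ckm followed a like order over the libraries. It stood at 17140, 15660 and 15540 CPM in the cured mice, at 3213 and 2351 CPM in the uncured mice and at 3006, 14600, 3581, 8400 and 1921 CPM in the untreated mice at 5wk. Anti-PD1 mouse 5 had 16130 CPM, and the other 4 anti-PD1 mice had 2235 to 5770 CPM. Divided by Ckm, the summed level ran from 1.28 in untreated 5wk mouse 2 to 6.61 in anti-CTLA4 mouse 1, which had the least Ckm. The ratio was 1.76 to 1.91 in the cured mice and 1.92 in anti-PD1 mouse 5. Untreated 5wk mouse 2 had nearly as much Ckm as the cured mice, at 14600 CPM, and a sum of 18730 CPM against 27490 CPM in the lowest cured mouse. Markers of slow fibers, such as Myh7 and Tnni1, summed to 2629 CPM in that mouse and to 5803 to 6013 CPM in the cured mice.

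**Figure D1:**
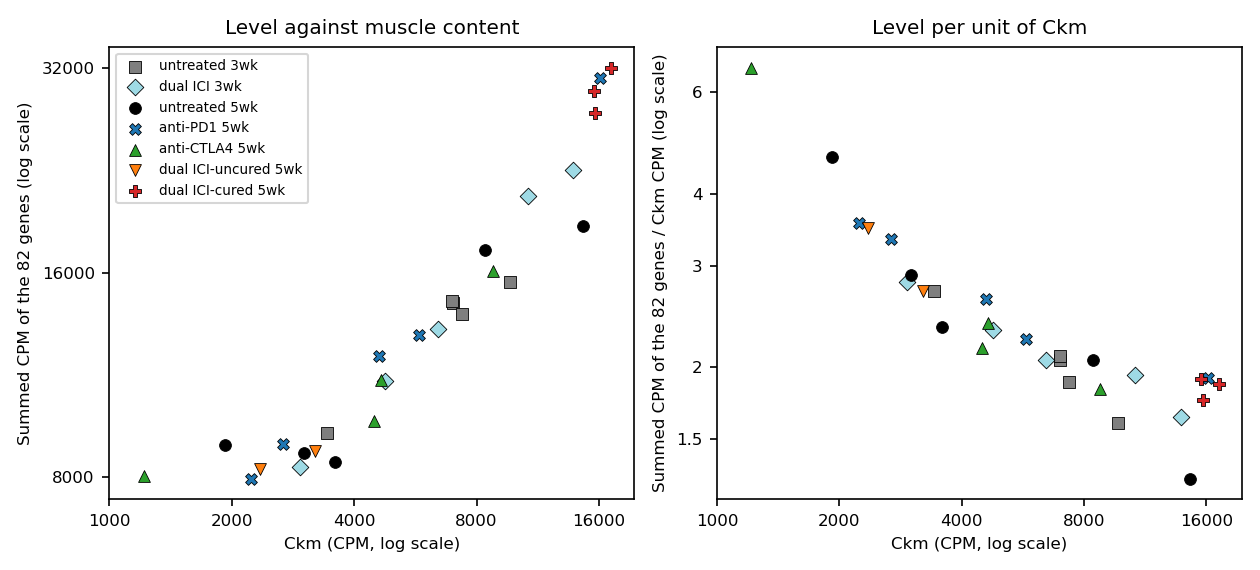
Left, the summed CPM of the 82 genes against the CPM of Ckm; right, the ratio of the 2 against Ckm; all axes are log scales and each point is 1 library. The cured mice and anti-PD1 mouse 5 lie at the upper right of the left panel, with untreated 5wk mouse 2 below them at nearly the same Ckm, and the ratio falls from 6.61 at the lowest Ckm to between 1.28 and 1.92 at the highest.

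The slope of each gene on Ckm within groups was fitted with edgeR over all 29 libraries, as the change of log2 CPM per unit of log2 CPM of Ckm. A slope of 1 means that a gene changed in proportion to Ckm. Of the 79 genes, 76 had a positive slope with an adjusted p under 0.05 and none a negative one. Of all 16699 genes tested, 29.2% had a positive slope past this threshold, 31.3% a negative one and 60.6% one in either direction. The median slope of the 79 was 0.54, against -0.02 over all genes, whose 95th percentile was 0.60. By complex the medians were 0.55 for complex I, 0.49 for complex II, 0.57 for complex III, 0.54 for complex IV, 0.50 for complex V and 0.29 for the related proteins.

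The 3 muscle isoforms of complex IV had the steepest slopes. Cox7a1 had a slope of 1.32 ± 0.073 (SE), Cox8b 0.99 ± 0.070 and Cox6a2 0.85 ± 0.077, with edgeR adjusted p of 2.5e-13, 2.6e-11 and 2.2e-09. They were followed by Atp5e, the small epsilon subunit of ATP synthase, at 0.76 ± 0.072, and Ndufc1, an accessory subunit of complex I, at 0.73 ± 0.047. At the other end stood Cox6a1 at -0.10 ± 0.083 and Cox8a at 0.03 ± 0.070, the ubiquitous partners of 2 of these isoforms, and Cox6b2 at 0.13 ± 0.129, which are the 3 genes that did not pass the test. Cox7a2l, at 0.15 ± 0.044, and Atp5s, at 0.27 ± 0.040, passed it with the flattest slopes. All 16 genes of a list of core subunits passed, with a median slope of 0.55. With library totals in place of TMM factors, the median slope of all genes moved to -0.23, the slopes of Cox6a1 and Cox8a were -0.30 and -0.17 with adjusted p of 0.0059 and 0.048, and that of Cox7a2l turned to -0.06. In the 3wk libraries alone 74 of the 79 passed and in the 5wk libraries alone 75, all positive, against 46.5% and 50.4% of all genes in either direction.

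**Figure D2:**
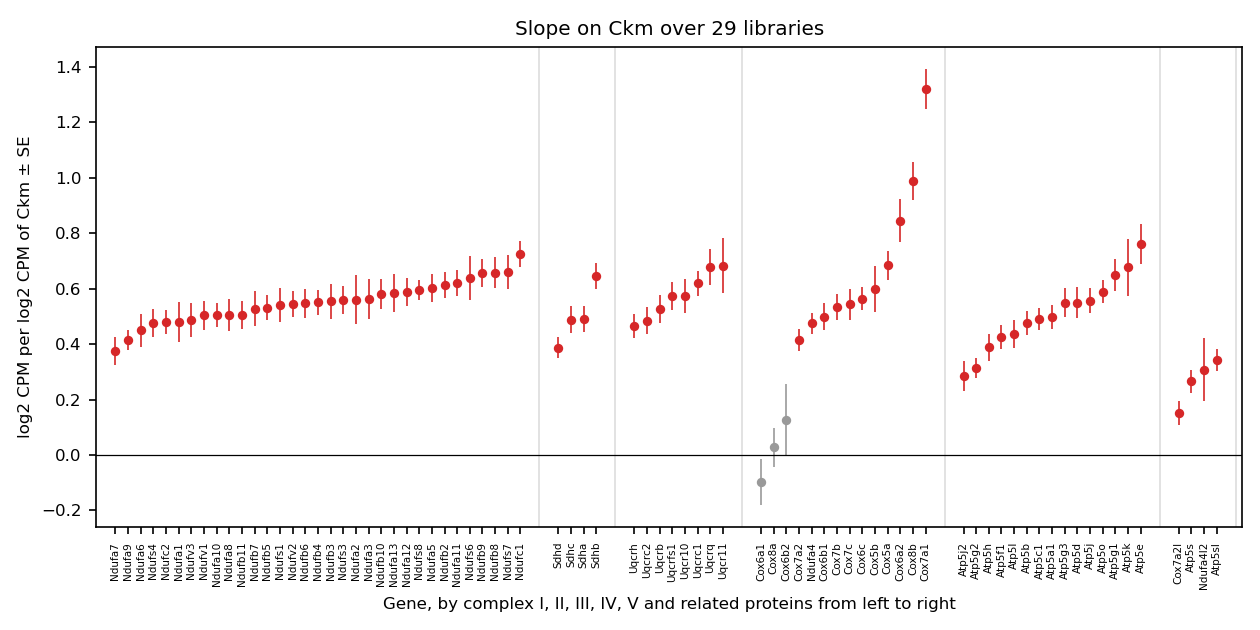
Slope of 78 of the 79 genes on Ckm over 29 libraries, in log2 CPM per log2 CPM of Ckm, with bars of 1 standard error; genes are ordered by slope within complexes I to V and the related proteins, red marks an adjusted p under 0.05 and gray the rest. The points of most complexes lie near 0.5, and complex IV spans -0.10 for Cox6a1 to 1.32 for Cox7a1.

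Dual ICI-cured mice were compared with untreated mice at 5wk, to ask how the tissue of cured mice differed from that of mice left untreated. Here 61 of the 79 genes were higher and 2 lower at an adjusted p under 0.05 (edgeR quasi-likelihood test, Benjamini-Hochberg over 15816 genes). Of all genes tested, 18.0% were higher, 26.7% lower and 44.7% called in either direction. The median log2 fold change of the 79 was 1.21, against -0.05 over all genes. The groups did not overlap, with cured higher, in 58 of the 79, against 20.3% of all genes, and with cured lower in 2, against 26.9%. Ckm itself differed by 1.36 ± 0.66 (SE) on the log2 scale, with an adjusted p of 0.12. With library totals alone the median of all genes moved to -0.64 and that of the 79 to 0.72. In that fit 51 of the 79 were higher and 2 lower, together 67.1%, against 54.2% of all genes called in either direction.

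The rise covered all 5 complexes. In complex I, 27 of 34 genes rose, with a median of 1.21 over the 34. All 4 genes of complex II rose, with a median of 1.49. In complex III 7 of 8 rose, in complex IV 10 of 14 rose and 2 fell, and in complex V 12 of 15 rose. Of the 4 related proteins, Atp5sl rose by 1.17 ± 0.20, and Cox7a2l differed by 0.02 ± 0.23. All 16 genes of the list of core subunits rose, by 1.17 to 1.97, with a median of 1.46. The list also holds Uqcrc1, Uqcrc2, Cox5a and Cox5b, which are not catalytic.

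Ndufs1, at chr1:63143596-63176833 on the minus strand of GRCm38, encodes a subunit with iron-sulfur clusters in the arm of complex I that accepts electrons from NADH. Its exons overlap those of Eef1b2 and Ino80dos on the other strand. It stood at 356, 391 and 384 CPM in the cured mice and at 79.0, 158, 83.4, 83.1 and 82.3 CPM in untreated mice 1 to 5. Every cured mouse lay above every untreated mouse, and its log2 fold change of 1.97 ± 0.26 had an adjusted p of 0.00047 (edgeR). Among the other core subunits of complex I, Ndufs3, Ndufs7, Ndufs8, Ndufv1 and Ndufv2 rose by 1.20 to 1.39.

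Both core subunits of complex II rose. Sdhb, its iron-sulfur subunit, stood at 595, 528 and 538 CPM in the cured mice and at 111, 292, 109, 226 and 98.5 CPM in untreated mice 1 to 5, without overlap. It differed by 1.74 ± 0.38 (adjusted p = 0.0057, edgeR). Sdha differed by 1.51 ± 0.29 (adjusted p = 0.0030, edgeR).

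In complex III, Uqcrfs1, the Rieske iron-sulfur protein, stood at 535, 520 and 533 CPM in the cured mice against 114, 291, 117, 193 and 125 CPM in the untreated. Again the groups did not overlap, and the log2 fold change was 1.67 ± 0.33 (adjusted p = 0.0036, edgeR). The core proteins Uqcrc1 and Uqcrc2 rose by 1.62 and 1.56. In complex IV, Cox5a rose by 1.70 ± 0.38 and Cox5b by 1.17 ± 0.37, both subunits that all tissues use.

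In complex V the alpha and beta subunits rose, Atp5a1 by 1.49 ± 0.32 and Atp5b by 1.42 ± 0.33. The 3 genes for subunit c, the ring that turns in the membrane, encode the same mature protein. Atp5g1 rose by 1.63 ± 0.35 and Atp5g3 by 1.41 ± 0.29, while Atp5g2 differed by 0.56 ± 0.23 with an adjusted p of 0.073 (edgeR).

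**Figure D3:**
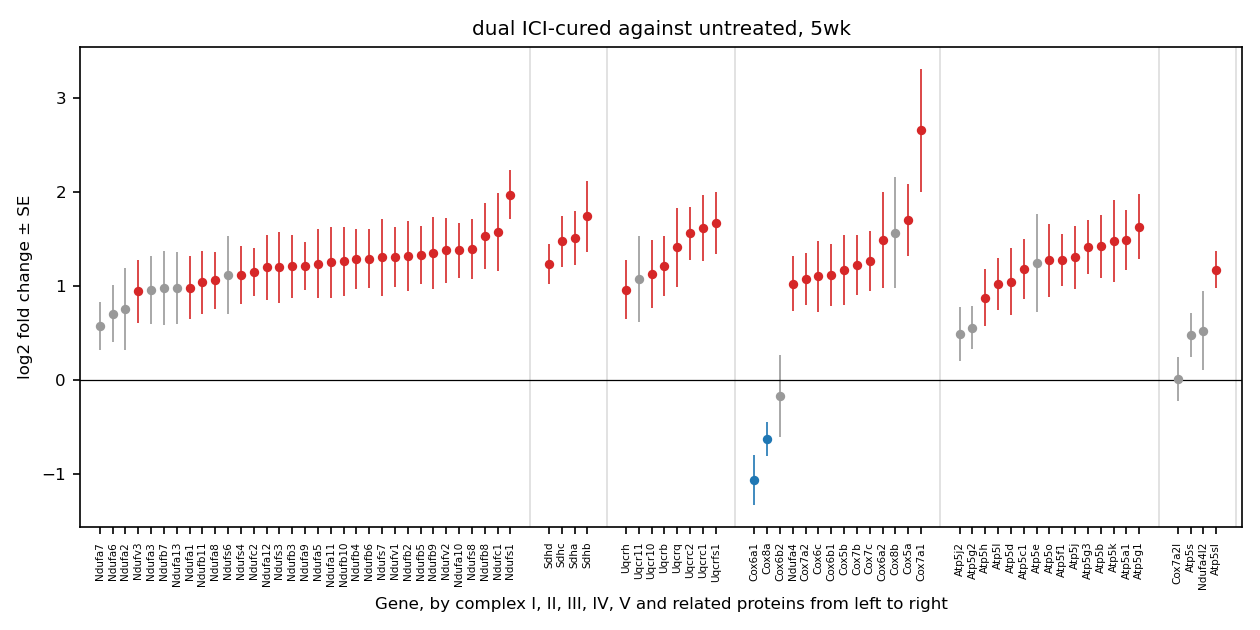
The log2 fold change of 78 of the 79 genes between 3 dual ICI-cured and 5 untreated mice at 5wk, with bars of 1 standard error, ordered within complexes I to V and the related proteins; red marks genes higher and blue genes lower at an adjusted p under 0.05, gray the rest. Cox7a1 is highest at 2.65, Ndufs1 next at 1.97, and Cox6a1 and Cox8a lie below 0 at -1.06 and -0.62.

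The 3 pairs of complex IV isoforms are given one by one. Cox7a1, at chr7:30184144-30186078 on the plus strand of GRCm38, had the largest range of the 79 genes, 47.5-fold between libraries. Cox7a1 stood at 206, 133 and 185 CPM in the cured mice, at 14.3, 59.5, 11.3, 48.3 and 6.20 CPM in the untreated mice at 5wk, and at 14.1 and 11.2 CPM in the uncured mice. It differed by 2.65 ± 0.65 between cured and untreated mice (adjusted p = 0.0100, edgeR). Its ubiquitous partner Cox7a2, at chr9:79755361-79759878 on the minus strand, rose too, by 1.08 ± 0.28 (adjusted p = 0.012, edgeR).

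Cox6a2, at chr7:128205435-128206387 on the minus strand, stood at 1116, 897 and 1015 CPM in the cured mice and at 164, 746, 172, 512 and 216 CPM in the untreated mice. The groups did not overlap, and it rose by 1.49 ± 0.51 (adjusted p = 0.038, edgeR). Its exons overlap Itgad on the other strand. Cox6a1, at chr5:115345642-115348981 on the minus strand, went the other way, with 95.8, 54.5 and 67.7 CPM in the cured mice and 168, 120, 120, 227 and 134 CPM in the untreated. All cured mice lay below all untreated mice, and Cox6a1 fell by 1.06 on the log2 scale, with a standard error of 0.27 (adjusted p = 0.012, edgeR). The fall of Cox6a1 missed the threshold without cured mouse 3 (adjusted p = 0.060) or cured mouse 4 (adjusted p = 0.054).

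Cox8b, at chr7:140898945-140900446 on the minus strand, stood at 453, 256 and 386 CPM in the cured mice and at 62.5, 229, 46.3, 235 and 47.4 CPM in the untreated. The groups did not overlap, and the log2 fold change of 1.57 ± 0.59 missed the threshold with an adjusted p of 0.053 (edgeR). Cox8a, at chr19:7215153-7217616 on the minus strand, stood at 75.8, 51.4 and 67.3 CPM against 99.9, 91.3, 85.6, 128 and 100.4 CPM. All cured mice were lower, and Cox8a fell by 0.62, with a standard error of 0.18 (adjusted p = 0.021, edgeR). Its fall also missed the threshold without cured mouse 3 (adjusted p = 0.11) or cured mouse 4 (adjusted p = 0.067). Both falls kept their sign under all scalings tried, and both genes stood at 3wk near the level of the cured mice, with 65.8 to 83.7 CPM of Cox6a1 and 49.4 to 64.5 CPM of Cox8a in untreated mice.

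**Figure D4:**
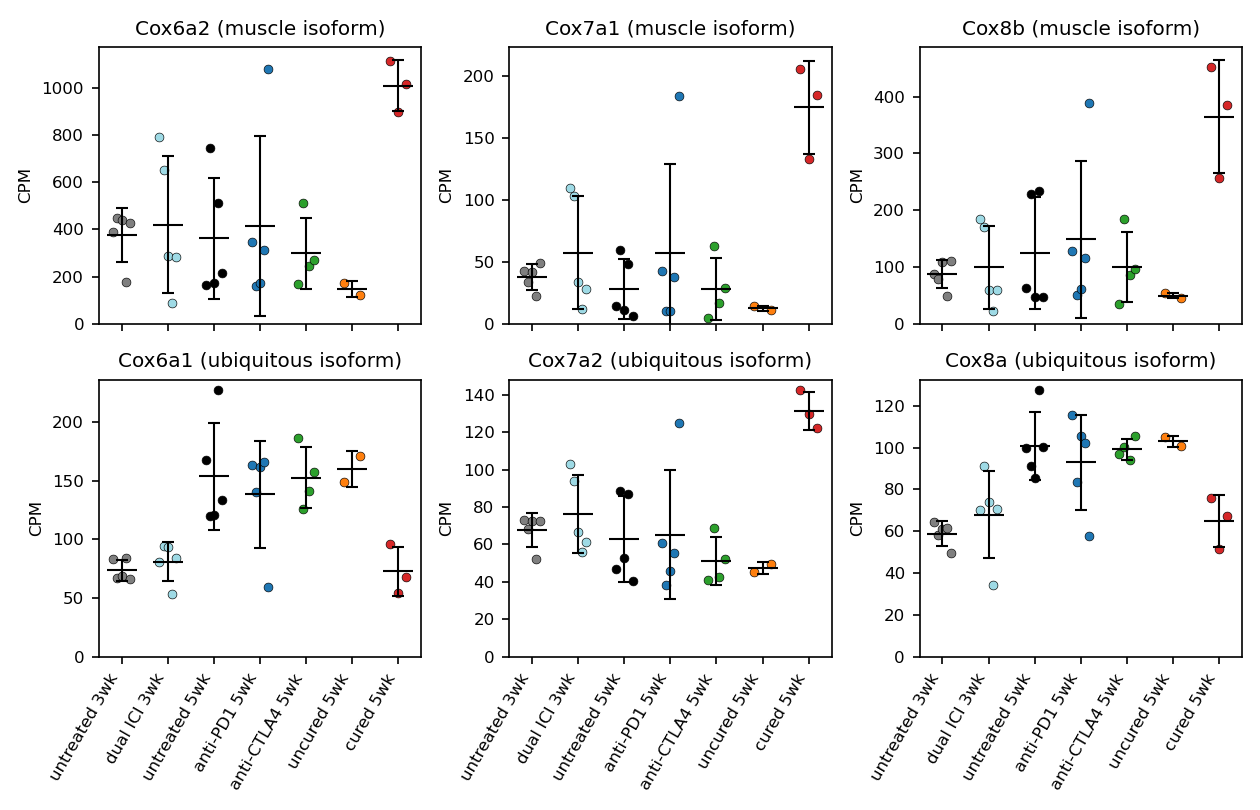
CPM of the 3 muscle isoforms of complex IV (top) and their ubiquitous partners (bottom) in each library of the 7 groups, on linear axes from 0, with the group mean and SD (bars that would pass below 0 are cut there). The cured mice and 1 anti-PD1 mouse, with 1079 CPM of Cox6a2, are the highest libraries in the 3 upper panels and in Cox7a2, and lie below the other 5wk libraries in Cox6a1 and Cox8a.

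The log2 ratio of each muscle isoform to its partner does not depend on how libraries are scaled. Cox6a2 to Cox6a1 was 3.83 ± 0.26 (SD, n = 3) in the cured mice and 1.00 ± 1.02 (SD, n = 5) in the untreated mice at 5wk. Cox7a1 to Cox7a2 was 0.39 ± 0.31 in the cured mice and -1.61 ± 0.90 in the untreated, and Cox8b to Cox8a was 2.47 ± 0.14 against -0.09 ± 1.11. In all 3 pairs every cured mouse lay above every untreated mouse, and the exact two-sided permutation test gave p = 0.036, the smallest that 3 against 5 allows. Adjusted over the 24 tests of 3 pairs in 8 comparisons, this was 0.29, and no ratio passed in any comparison. From 0.036, cured against untreated mice could pass only if most of the other tests had p-values as small. The 0.29 is therefore not read as a lack of difference. The smallest p that the permutation test allows was 0.2 for cured against uncured mice. For uncured against untreated mice it was 0.0952, so neither of these comparisons could pass at any difference. In all 3 pairs the cured mice lay above the uncured mice without overlap, at that p of 0.2. In the uncured mice the ratios were -0.13 ± 0.47, -1.91 ± 0.33 and -1.05 ± 0.11 (n = 2). Anti-PD1 mouse 5 had ratios of 4.18, 0.56 and 2.76, and the other 4 anti-PD1 mice stayed at or below 1.08, -0.52 and 0.19.

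Promoter sequences are shown for the 2 muscle isoforms with the steepest slopes on Ckm and for the 2 ubiquitous forms that fell. They are the 250 bases before the RefSeq start site in GRCm38.p6, on the strand of the gene, and capitals mark the motifs found.
Cox7a1 (chr7:30183921-30184170, plus strand): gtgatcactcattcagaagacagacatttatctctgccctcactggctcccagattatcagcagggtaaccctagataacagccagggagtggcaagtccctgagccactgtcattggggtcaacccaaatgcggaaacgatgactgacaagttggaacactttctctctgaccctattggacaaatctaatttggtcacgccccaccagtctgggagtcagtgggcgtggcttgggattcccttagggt
Cox8b (chr7:140900447-140900696, minus strand): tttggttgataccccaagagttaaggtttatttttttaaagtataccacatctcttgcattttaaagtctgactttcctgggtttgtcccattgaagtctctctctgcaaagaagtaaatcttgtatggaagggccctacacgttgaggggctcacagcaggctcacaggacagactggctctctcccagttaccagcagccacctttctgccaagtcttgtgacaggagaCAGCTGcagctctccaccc
Cox6a1 (chr5:115348959-115349208, minus strand): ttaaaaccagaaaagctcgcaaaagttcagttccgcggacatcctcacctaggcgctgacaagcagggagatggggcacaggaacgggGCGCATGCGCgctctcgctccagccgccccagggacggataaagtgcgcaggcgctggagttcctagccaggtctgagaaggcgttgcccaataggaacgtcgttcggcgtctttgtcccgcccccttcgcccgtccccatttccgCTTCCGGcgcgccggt
Cox8a (chr19:7217617-7217866, minus strand): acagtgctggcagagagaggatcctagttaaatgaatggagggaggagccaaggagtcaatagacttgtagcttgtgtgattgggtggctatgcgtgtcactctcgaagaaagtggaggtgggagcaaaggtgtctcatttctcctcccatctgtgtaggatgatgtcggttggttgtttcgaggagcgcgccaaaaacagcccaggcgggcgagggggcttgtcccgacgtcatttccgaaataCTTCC

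A RefSeq promoter was matched for 69 of the 82 genes. In windows of 250 bases before to 50 after the start, 5 motifs were searched on both strands, as letters only. The NRF1 motif, 10 letters that read the same on both strands and stand as the first capitals of the Cox6a1 stretch, was in 5 of the 69 promoters (7.25%), against 0.977% of all 27025. The ETS motif CCGGAAG, bound by GABP among others, was in 15 (21.7%), against 9.12%. The YY1 motif AAGATGGCG was in 7 (10.1%), against 1.49%, and the estrogen-related receptor motif AAGGTCA was in 8 (11.6%), against 4.66%. The muscle E-box CAGCTG was in 6 (8.70%), against 16.1%. Cox6a1 held an NRF1 motif 162 bases and an ETS motif 16 bases before its start. Cox8a held an ETS motif 5 bases before its start, cut by the end of the stretch printed, and another 32 bases after it. Cox8b held an E-box 19 bases before its start and another 16 bases after it. None of the 5 motifs was found in the window of Cox7a1 or Cox7a2. A match is a run of letters and was not tested as a binding site.

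Other genes of mitochondrial respiration were taken by lists. In cured against untreated mice 18.0% of all genes tested were higher and 26.7% lower. In cured against untreated mice 12 of 13 citric acid cycle genes rose, among them Idh3a at 2.10 ± 0.37 and Cs, citrate synthase, at 1.58 ± 0.34. Of 10 genes for electron carriers and ubiquinone synthesis 8 rose, among them Cycs, cytochrome c, at 1.75 ± 0.31. Of 41 assembly factors of the complexes that were tested 25 rose and none fell, with a median of 0.75 and Ndufaf5 highest at 1.75. Of the 4 subunit genes that the pattern left out, Cyc1 and Ndufab1 rose, by 1.65 and 1.51, and Cox4i1 differed by 0.81 ± 0.31 (adjusted p = 0.059, edgeR).

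Of 14 regulators of mitochondrial biogenesis 9 rose and none fell. Esrrg and Esrrb, estrogen-related receptors, rose by 2.60 ± 0.36 and 2.59 ± 0.42, and Ppargc1a, which codes for the coactivator PGC-1 alpha, by 1.62 ± 0.30. Nrf1 and Yy1 differed by -0.10 ± 0.12 and -0.14 ± 0.14, with adjusted p of 0.54 and 0.43 (edgeR). Muscle markers also rose. All 6 slow-fiber markers rose, with a median of 2.42 and Myl2 at 2.68 ± 0.54. All 18 general skeletal muscle markers had a positive log2 fold change, with a median of 1.35. Of these 18, 5 passed the threshold, against 18.0% of all genes higher. Those 5 were Myh2, the myosin of fast oxidative fibers, at 3.33 ± 0.30, Mb, myoglobin, at 3.29 ± 0.58, Casq1, Mylpf and Myh1. Of 8 gastric epithelial markers tested 7 fell, with a median of -6.70 and Cldn18 at -8.03 ± 0.60, and 3 of 5 mesothelial and 3 of 8 leukocyte markers fell, where 26.7% of all genes were lower. Both liver markers tested fell, Ttr and Apoa1, and the 4 liver markers summed to 0.339 to 0.973 CPM in cured and 4.63 to 33.2 CPM in untreated mice. Of 5 endothelial markers 2 rose, and 1 each of 5 white adipocyte and 6 fibroblast markers rose, where 18.0% of all genes were higher. Of 3 heart markers tested, Myh6 rose and Myl7 fell. Cox7a1 and Cox8b are also genes of brown adipocytes. Ucp1, which defines those cells, stood at no more than 0.12 CPM in any library. The part of these other cell types in the differences was not tested.

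With Ckm as a covariate, the count in cured against untreated mice went from 63 to 16 of the 79 (20.3%), against 15.8% of all genes in that fit. Of the 16, 15 were higher and Cox6a1 was lower. The 15 included all 4 genes of complex II, the 3 core genes of complex III (Uqcrc1, Uqcrc2 and Uqcrfs1), Atp5a1, Atp5b, Atp5g1 and Atp5g3 of complex V, Ndufs1 of complex I, and Cox5a and Cox7a1 of complex IV, with Atp5sl the last. Ndufs1 differed by 1.48 in that fit, with an adjusted p of 0.0052 (edgeR). With the mean of all 18 skeletal muscle markers as the covariate, 1 gene of the 79 passed, against 9.23% of all genes. This was Ndufs1, at 1.26 with an adjusted p of 0.022 (edgeR), and the median of the 79 was 0.06. The count without a covariate was 36 without cured mouse 2 and 35 without cured mouse 4, where 30.6% and 28.1% of all genes were called.

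Dual ICI-cured mice were also set against the 2 dual ICI-uncured mice. Of the 79 genes 76 were higher and 2 lower, against 33.1% and 36.9% of all genes tested, and 70.0% in either direction. The groups did not overlap in 76 of them with cured higher and in 2 with cured lower, against 37.4% and 43.7% of all genes. The median was 1.82. Cox7a1 was highest at 3.82 ± 0.21, followed by Cox8b at 2.90 ± 0.23, Cox6a2 at 2.80 ± 0.17, Sdhb at 2.36 ± 0.11 and Uqcrfs1 at 2.33 ± 0.10. Ckm rose by 2.56 ± 0.17. Cox6a1 fell by 1.11 and Cox8a by 0.64, and Cox6b2 was the gene that did not pass. With Ckm as a covariate no gene of the 79 passed in edgeR. In that fit 0.0506% of all genes passed. Ckm does not overlap between these groups, and the median of the 79 in that fit was 0.99.

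The other comparisons at 5wk called none of the 79 genes, with edgeR or with DESeq2. In all 5 dual ICI mice against untreated mice, edgeR called 0% of all genes, and 2 of the 79 had an unadjusted p under 0.05, against 6.87% of all genes. The median of the 79 was 0.74. The largest changes were Cox7a1 at 1.98 ± 0.93 and Ndufs1 at 1.41 ± 0.52, with Cox6a1 at -0.52 ± 0.33 and Cox6b2 at -0.35 ± 0.37 at the other end. A fit of all 29 libraries, with cured and uncured mice as separate groups, called 16.1% of all genes for this comparison. It called none of the 79, with a median of 0.47. In uncured against untreated mice, with 0% of all genes called, 77 of the 79 had a negative log2 fold change, none had an unadjusted p under 0.05 (4.87% of all genes), and the median was -0.61. Both uncured mice lay below all untreated mice in 15 of the 79, against 8.33% of all genes, and above them in none, against 9.22%. Cox8b differed by -1.33 ± 0.75, Cox6a2 by -1.32 ± 0.66, Cox6a1 by 0.05 ± 0.29 and Cox8a by 0.02 ± 0.20. Ckm differed by -1.21 ± 0.82.

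In anti-PD1 against untreated mice, with 0% of all genes called, none of the 79 had an unadjusted p under 0.05 (1.31% of all genes) and the median was 0.19, with 66 positive. Without mouse 5 of the anti-PD1 group the median was -0.28, with 1 of the 79 positive. Cox7a1 at 1.02 ± 0.88 and Ndufs1 at 0.68 ± 0.48 were highest, and Cox6b2 at -0.22 ± 0.34 and Cox7a2l at -0.20 ± 0.20 lowest. Mouse 5 set the upper end in this group. Its Ndufs1 was 402 CPM and its Sdha 1061 CPM, and the other 4 mice had 68.3 to 121 CPM and 270 to 425 CPM. In anti-CTLA4 against untreated mice, again with 0% called and none of the 79 at an unadjusted p under 0.05 (0.811% of all genes), the median was -0.20, with 2 positive, and Ckm differed by -0.43 ± 0.68. Without untreated 5wk mouse 2 the median was 0.02, with 44 positive, and without anti-CTLA4 mouse 1 it was -0.06, with 24 positive. Ndufs1 at 0.12 ± 0.32 and Sdha at 0.01 ± 0.29 were highest, and Atp5e at -0.48 ± 0.51 and Ndufa4l2 at -0.47 ± 0.40 lowest. These comparisons share their untreated mice.

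At 3wk, dual ICI against untreated mice, edgeR called 0.574% of all genes and none of the 79, and DESeq2 also called none of the 79. None had an unadjusted p under 0.05, against 10.7% of all genes. The median was 0.16 and 77 of the 79 were positive. Without dual ICI mouse 1 the median was -0.03, with 34 positive, without mouse 2 it was 0.02, with 46 positive, and without untreated mouse 4 it was 0.05, with 61 positive. Ckm differed by 0.16 ± 0.42. Cox7a1 at 0.59 ± 0.51 and Ndufb2 at 0.52 ± 0.30 were highest, and Ndufa4l2 at -0.20 ± 0.33 and Cox6b2 at -0.12 ± 0.34 lowest. With Ckm as a covariate 1 gene of the 79 passed, Ndufb2, against 4.08% of all genes. The interaction of dual ICI with time called 0% of all genes and none of the 79, with 1 at an unadjusted p under 0.05, against 10.3% of all genes. This was Ndufs1 at 1.34 ± 0.58, and the median was 0.53.

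Untreated mice at 5wk were set against untreated mice at 3wk. Of the 79 genes 2 rose and 1 fell, against 6.24% and 4.58% of all genes and 10.8% in either direction. Cox6a1 rose by 1.06 ± 0.19 (adjusted p = 0.0092, edgeR) and Cox8a by 0.78 ± 0.13 (adjusted p = 0.0077, edgeR). Neither overlapped between the groups: Cox6a1 had 120 to 227 CPM at 5wk and 65.8 to 83.7 CPM at 3wk. Ndufs1 fell by 1.13, with a standard error of 0.24 (adjusted p = 0.017, edgeR). It had 230, 224, 226, 138 and 248 CPM in the 5 mice at 3wk and 79.0 to 158 CPM at 5wk, where untreated 5wk mouse 2 lay above untreated 3wk mouse 4, so the groups overlapped. At an unadjusted p under 0.05 stood 17 of the 79, against 30.1% of all genes. The 5wk mice were all higher than the 3wk mice in 5, against 6.02% of all genes, and all lower in none, against 5.20%. The median of the 79 was -0.0018, and Ckm differed by -0.12 ± 0.54. Without untreated 5wk mouse 2, 3 rose and 8 fell, or 13.9% of the 79, against 31.2% of all genes called. With Ckm or the skeletal muscle list as a covariate more of the 79 passed, and a larger share of them than of all genes. The counts of these 2 fits are given in the closing section on processing.

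Gene length moved with this difference. Over the 78 of these genes with an annotated length, all but Atp5sl, the log2 fold change and the summed exon length had a Spearman correlation of -0.454 across genes, which are not independent replicates and share their libraries. The genes longer than the median length had a median change of -0.16 and the shorter ones 0.14. Ndufs1 is the longest of the 78, with 8086 bases of exon, and Cox6a1 and Cox8a are short, with 702 and 619 bases. In the other comparisons between groups the correlation ran from -0.0918 to 0.286. The part of gene length in the difference was not tested.

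**Figure D5:**
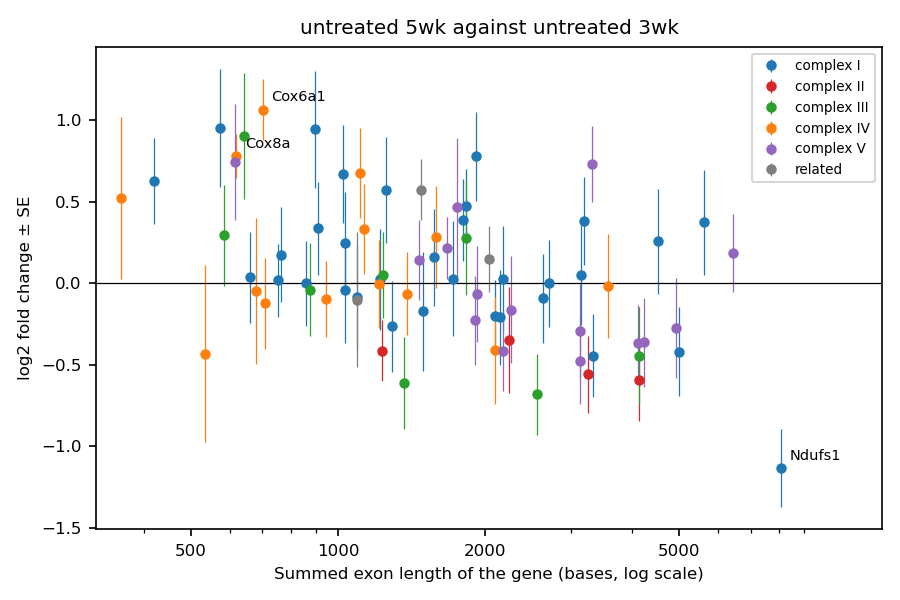
The log2 fold change of untreated 5wk against untreated 3wk mice (5 each) against summed exon length on a log scale, with bars of 1 standard error and colors by complex. The genes that passed the test are named: Cox6a1 and Cox8a at 702 and 619 bases lie above 0, and Ndufs1 at 8086 bases lies below at -1.13.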

How the data were processed

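RNA-seq was made from the tissue of 29 mice, 1 library a mouse. The authors deposited raw read counts per gene symbol. The submitters' processing notes name STAR 2.7.0f, featureCounts 1.6.4 and the mm10 build. The study's methods name another aligner version and another counter, and which made the table is not settled. The annotation and strand setting were not given in the sources used here. Groups came from the sample labels, with cured and uncured mice split as described. Members and gene lists were chosen with earlier results of these data known.

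Counts were tested with edgeR 4.0.16 in R 4.3.3 (TMM, filterByExpr, quasi-likelihood F test) on the groups compared, and p-values were adjusted by Benjamini-Hochberg across every gene that passed the filter. The standard error is the log2 fold change divided by the square root of F. The slope on Ckm was fitted with a term for group. Isoform ratios were tested with exact permutation tests (pseudocount of 0.5 counts). DESeq2 1.42.0, other scalings and filters, muscle covariates, a replicate block and leaving out each library were alternatives. Scripts were tested on simulated data. Coordinates come from GENCODE vM21, in which 81 of the 82 symbols matched.

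Named were the complex IV isoforms, the list of core subunits, the highest and lowest member of each complex, the members with the largest changes or slopes, and up to 3 examples of each list. Ndufs3, Atp5g2, Cox5b and other members beyond these were named after their values were seen. The values of 1 member are not reported here.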

Additional observations from a re-analysis of the deposited data

Results flagged for a closer look

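Single libraries were set against their group with Dixon's test at the 95% level in groups of 4 or 5. Of 165 group values 26 passed, where chance flags about 1 in 20, or 8.25. The values are not independent, because sums, their member genes and ratios come from the same libraries. The 26 and 8.25 are therefore not a test of excess. Untreated 3wk mouse 4 was far below the other 4 untreated 3wk mice in 18 of them. Its summed CPM was 2330 for complex I, 752.7 for complex II, 1019 for complex III, 1198 for complex IV, 3832 for complex V and 9292 for all 82 genes. Among complex I genes it had 138.4 CPM of Ndufs1, 73.19 of Ndufs3, 98.7 of Ndufs7 and 134.7 of Ndufv1. It had 352.0 CPM of Sdha, 297.3 of Uqcrc1, 173.5 of Uqcrfs1, 136.5 of Cox5a, 176.1 of Cox6a2, 52.16 of Cox7a2, 908.6 of Atp5a1 and 1036 of Atp5b. Its Ckm was 3425 CPM, the lowest of that group.

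Anti-PD1 mouse 5 stood apart from the other 4 anti-PD1 mice in 5 values. It was highest in the log2 ratios of Cox6a2 to Cox6a1, at 4.183, and of Cox8b to Cox8a, at 2.756, and in Uqcrc2 at 499.6 CPM and Atp5a1 at 2786 CPM, and lowest in Cox6a1 at 59.37 CPM. Dual ICI 3wk mouse 4 was lowest in Cox6a1, at 53.4 CPM, and in Cox8a, at 34.39 CPM. Untreated 5wk mouse 2 was highest in Ndufs1, at 157.5 CPM.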

How the results depend on the processing

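Counts are of the 79 genes called. With Ckm or the skeletal muscle list as a covariate (the list was added after seeing the data), the counts were 16 and 1 in cured against untreated mice (63 in the report), 0 and 0 in cured against uncured mice (78), 22 and 31 in untreated 5wk against 3wk mice (3), and 1 and 1 in dual ICI against untreated mice at 3wk (0). Untreated 5wk against 3wk mice gave 8 with DESeq2, 5 in a fit of all 29 libraries and 9 with library totals alone, which was also added after seeing the data. Leaving out 1 library at a time gave 35 to 74 in cured against untreated mice. The 35 came without cured mouse 4, where 28.1% of all genes were called. The 74 came without untreated 5wk mouse 2 and also without untreated 5wk mouse 4, where 59.5% and 46.1% of all genes were called. The range was 3 to 11 in untreated 5wk against 3wk mice and 78 to 78 in cured against uncured mice. With all libraries, 10.8% and 70.0% of all genes were called in these 2 comparisons. It was 0 to 0 in the others and the interaction. Of all genes, the Ckm and muscle list fits called 15.8% and 9.23% in cured against untreated mice, 0.0506% and 0.209% in cured against uncured mice, 20.2% and 21.3% in untreated 5wk against 3wk mice and 4.08% and 4.48% in dual ICI mice at 3wk. In untreated 5wk against 3wk mice DESeq2, the fit of all libraries and library totals alone called 20.1%, 13.4% and 8.26%. The cause of these shifts was not tested.

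Same-numbered mice did not deviate together throughout: correlations ran from -0.70 to 0.74. Above 0.1 stood 3 of 5 pairs in dual ICI against untreated mice at 5wk and 3 of 4 pairs in anti-CTLA4 against untreated mice. No comparison with 3 or more pairs had every pair above 0.1, so the numbers were not taken as pairs. For some dual ICI mice at 3wk the library name also carried another number than the label. With a replicate block the count was 44 in cured against untreated mice (25.4% of all genes), 3 in untreated 5wk against 3wk mice, 76 for the slope on Ckm and 0 elsewhere. No paired analysis was possible for cured against uncured mice because they share no number.

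As a difference of medians, the isoform ratios turned direction for Cox6a2/Cox6a1 (0.091) and Cox8b/Cox8a (0.55) in anti-CTLA4 and for Cox7a1/Cox7a2 in dual ICI at 3wk (-0.20). Without single libraries the difference in anti-CTLA4 mice ran from -0.53 to 0.27 for Cox6a2/Cox6a1, -0.20 to 0.83 for Cox7a1/Cox7a2 and -0.48 to 0.30 for Cox8b/Cox8a. In anti-PD1 mice it ran from -0.43 to 0.70 for Cox6a2/Cox6a1 and -0.20 to 0.76 for Cox8b/Cox8a, and in dual ICI mice at 3wk from -0.56 to 0.083 for Cox6a2/Cox6a1 and -0.19 to 0.40 for Cox7a1/Cox7a2. With the muscle list as covariate, the difference between cured and untreated mice turned to -0.15 for Cox6a2, -0.058 for Ndufs3 and -0.089 for Ndufs7, and with library totals alone the slope of Cox7a2l turned to -0.057.

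Of 360 alternatives over 20 named genes in cured against untreated mice, 297 kept direction and call, 60 lost the call and 3 turned. Of 294 over 21 genes in cured against uncured mice 42 lost the call and none turned. Of 60 over 3 genes in untreated 5wk against 3wk mice, all kept both.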
